A study of Mus musculus with 25 samples.

Results

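The MYC, MAX and MNT network was followed in the mouse *soleus*, at rest and 60 minutes after a bout of treadmill running. Its members here were *Myc*, *Mycn*, *Mycl*, *Max*, *Mnt*, *Mxd1*, *Mxd3*, *Mxd4*, *Mxi1* and *Mlxip*, 10 of the 52636 genes in the count table, taken by symbol. They were chosen by symbol with results of the same libraries known, in which counts of rested and exercised mice had been compared, so their differences between rest and exercise are a description. No p-value is given for them, and where a member is said to pass the threshold of the fit over all genes, nothing is read from that. Genotype, sex and the interactions were tested in fits over all genes. Earlier results of these libraries for genotype and its interaction with exercise were also at hand when the members and lists were chosen. A lack of calls there is therefore a description too, and not an independent test.

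The MYC proteins (MYC, MYCN and MYCL) are basic helix-loop-helix leucine zipper transcription factors that bind DNA only as dimers with MAX. MAX also pairs with the MXD proteins, with MXI1 and with MNT, and these dimers bind the same E-box sequence and repress transcription through the SIN3 corepressor complex. Occupancy of shared sites is therefore set by the relative amounts of activating and repressing partners of MAX. MLXIP, also known as MondoA, belongs to a parallel arm that pairs with MLX and responds to glucose-6-phosphate, and it is known for its high level in skeletal muscle. MYC itself has a very short-lived mRNA and protein and is known as an early response gene that drives ribosome production and cell growth.

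The RNA came from 25 C57BL/6 mice aged 12 weeks, 1 library per mouse. All mice carried floxed *Dnmt3a* alleles with exon 19 flanked by loxP sites. WT mice had no Cre, and the mD3AKO mice (labelled KO) also had the mCK-Cre transgene. Its muscle creatine kinase promoter acts late, in differentiated skeletal muscle and in heart, so that the deletion is directed to muscle fibers, and which cells hold the *Dnmt3a* transcript that remains was not tested. Exercised mice ran for 30 minutes and were killed 60 minutes after the run. Rested mice were killed after 30 minutes in a sham treadmill arena. The groups held 5 rested WT mice (2 females and 3 males), 7 exercised WT mice (4 and 3), 7 rested mD3AKO mice (3 and 4) and 6 exercised mD3AKO mice (3 and 3). Levels are CPM, counts scaled to library size with the trimmed mean of M-values (TMM), and are printed as the mean ± SD, and a change is a log2 fold change ± SE from edgeR's quasi-likelihood fit.

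Library totals ran from 22671457 to 37431801 counts, with a median of 32189360, so 1 CPM stood for about 32.2 reads at the median total. The genotype check held in all libraries, with *Dnmt3a*, the targeted methyltransferase, at 116 ± 13.3 CPM in WT mice (n = 12, lowest 93.4) and 40.9 ± 5.86 CPM in mD3AKO mice (n = 13, highest 53.9). Mouse 15, a rested mD3AKO male, stood apart: genes for ribosomal RNA took 39.5% of its counts, and 7.76% to 13.0% in the other 24 libraries. Its values are included, and values without it are given beside *Myc*, *Mycn*, *Max*, *Mxd4* and the ratios to the MYC genes, where it was at an end of the rested mD3AKO mice. Sex followed runs of mouse numbers (1 to 6 and 20 to 25 were female, 7 to 19 male), so sex and whatever order the numbers stand for cannot be told apart. Markers of the slow fibers that make up much of the *soleus* were abundant in every library, with *Myh7*, the slow myosin heavy chain, between 8498 and 20180 CPM. In whole muscle, fewer cells of a type and less RNA per cell cannot be told apart.

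RefSeq promoters (GRCm38.p6, 250 bases before to 50 after each transcription start) were matched for 9 of the 10 members, all except *Myc*, whose promoter was not searched, which gave 11 promoters since *Mxi1* had 3. The canonical E-box CACGTG, which reads the same on both strands, stood in the promoters of 3 members, *Max*, *Mnt* and *Mxd4*, and in 7.15% of all 32851 promoters of that length. The variant CACGCG (either strand) was found in *Mycl* alone among these 9 members, 20 bases before the start, and in 9.27% of all promoters. The cyclic AMP response element TGACGTCA was in none of the 11 promoters and in 1.79% of all. An E2F-type site, TTTGGCGC on either strand, occurred in 1 member, *Mycn*, and in 0.514% of all promoters. The stretches around each CACGTG and TTTGGCGC match are shown so that the letters and their flanks can be compared between the members. Each runs 5′ to 3′ on the gene's own strand, with the matched letters in capitals.
*Max*, chr12:76962226-76962271, minus strand: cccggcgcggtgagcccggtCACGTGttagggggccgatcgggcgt
*Mnt*, chr11:74830781-74830826, plus strand: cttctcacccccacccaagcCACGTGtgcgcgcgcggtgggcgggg
*Mxd4*, chr5:34187904-34187949, minus strand: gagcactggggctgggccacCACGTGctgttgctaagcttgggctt
*Mycn*, chr12:12941977-12942039, minus strand: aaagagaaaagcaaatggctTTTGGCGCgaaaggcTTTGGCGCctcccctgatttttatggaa
The E-box of *Max* began 3 bases before the RefSeq start and ran across it, that of *Mnt* began 123 bases before and that of *Mxd4* 219 bases before. The 2 copies in *Mycn* lay on the gene's strand and began 183 and 168 bases before its start. A match is a description of the letters and not a shown site of binding.

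Levels between genes were compared per kilobase of exon. *Mxi1*, a MAX partner that antagonizes MYC, had the highest level of the network at 9.32 ± 0.865 CPM per kb (n = 25) and lay above the next gene in all 25 mice. *Mlxip* (5.58 ± 0.908), *Mxd4* (5.31 ± 0.714) and *Max* (4.82 ± 0.569 CPM per kb) followed. *Mlxip* exceeded *Mxd4* in only 13 of 25 mice, so those neighbours did not differ beyond their spread, and *Mxd4* exceeded *Max* in 21. *Max* was above *Mnt* (1.45 ± 0.367 CPM per kb) in all 25 mice. *Mnt* was above *Myc* (1.16 ± 0.605) in 17 of 25, and *Myc* was above *Mxd1* (0.592 ± 0.101) in 23. The lowest genes were *Mycn* at 0.229 ± 0.109, *Mycl* at 0.149 ± 0.151 and *Mxd3* at 0.0598 ± 0.0548 CPM per kb. The common dimer partner and 3 of the repressing or glucose-responsive members were several-fold above any MYC gene per length, in means over 25 mice. The ratio of *Max* to *Myc* was smaller in the exercised mD3AKO males, at 2.38 ± 0.724 (n = 3) with a lowest value of 1.65.

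**Figure D1:**
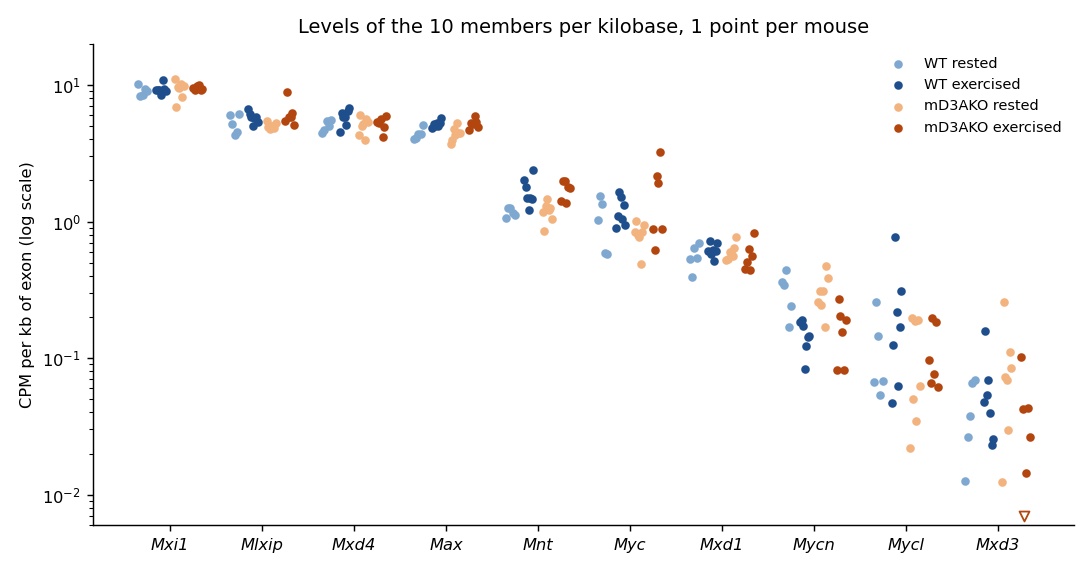
Level of each member in CPM per kilobase of exon on a log axis, 1 point per mouse, coloured by genotype and exercise group. The open triangle at the lower edge is a library with 0 counts of Mxd3. Mxi1 is highest at 9.32 on average and Mxd3 lowest at 0.0598, and the MYC genes lie below Max in the order of means.

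The 3 lowest genes were measured with few reads. *Mycn* had 8 to 59 counts per library, *Mycl* 2 to 98 and *Mxd3* 0 to 24. *Mxd3* was under 10 counts in 22 libraries and did not pass the filter for the comparison of 4 groups, so 9 of the 10 members were tested there. Its single count of 0, in an exercised mD3AKO male, allows up to 3 counts in that library, or 0.0957 CPM, counting error only. *Mxd3* also shares 105 exonic bases with *Prelid1* on the opposite strand, and since the strand setting of the counting is not given in the sources used here, its reads are uncertain. *Mxd4*, *Mxi1* and *Mlxip* share exonic bases with opposite-strand genes that collected 0, 0 and 18 counts over all libraries, and *Myc*, *Mycn*, *Mycl*, *Max*, *Mxd1* and *Mnt* share none.

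After exercise, *Mnt* and *Max* were higher and *Mycn* was lower, and these 3 of the 9 tested members passed an adjusted p of 0.05 over all 16340 genes tested. Of all genes, 10.4% passed, with 5.7% higher and 4.69% lower. Since this contrast was known when the members were chosen, the count describes them and is not read against that share. The other 6 did not pass. None of the 10 members had rested and exercised mice that did not overlap, a pattern seen in 1.07% of all genes tested.

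*Mycn* (mm10 chr12:12936093-12941914, minus strand, ENSMUSG00000037169) encodes the MYC protein best known from embryonic and neural progenitor cells. Rested WT mice had 0.556, 0.792, 1.13, 1.19 and 1.45 CPM. Rested mD3AKO mice ran from 0.560 to 1.56 CPM with a median of 1.02. Exercised WT mice ran from 0.274 to 0.625 (median 0.480) and exercised mD3AKO mice from 0.271 to 0.897 CPM (median 0.568). All 13 exercised mice lay below the rested median and 7 lay below the lowest rested mouse, a WT male at 0.556 CPM. The mean was 1.02 ± 0.321 CPM at rest (n = 12) and 0.513 ± 0.182 after exercise (n = 13), a log2 fold change of -1.0 ± 0.198, or 0.500-fold (95% interval 0.382 to 0.654). In reads this was 34.8 ± 14.3 counts per library at rest and 16.2 ± 5.34 after exercise. The change was -1.07 ± 0.284 in WT and -0.93 ± 0.275 in mD3AKO mice. Mouse 15 was the lowest rested mD3AKO mouse, and without it the change was -1.04 ± 0.193.

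*Myc* (chr15:61985391-61990374, plus strand, ENSMUSG00000022346) had 1.58, 1.61, 2.80, 3.63 and 4.19 CPM in the rested WT mice. Rested mD3AKO mice ran from 1.33 (mouse 15) to 2.73 CPM with a median of 2.29, and exercised WT mice from 2.42 to 4.49 with a median of 3.00. The exercised mD3AKO mice fell into a lower set of 3 females at 1.69, 2.40 and 2.41 CPM and a higher set of 3 males at 5.22, 5.90 and 8.82 CPM. Of the 13 exercised mice, 12 lay above the rested median of 2.29, and 4 lay above the highest rested mouse. The mean was 2.44 ± 0.831 CPM at rest and 3.81 ± 1.95 after exercise, a log2 fold change of 0.61 ± 0.220 that did not pass the threshold over all genes. It passed when 1 of 4 mice was left out, at 0.68 without the exercised mD3AKO female 3, 0.69 without female 6, 0.68 without female 23 and 0.71 without the rested WT male 11. Without mouse 15, the lowest rested mouse, it was 0.58 ± 0.223. The change was 0.26 ± 0.318 in WT and 0.97 ± 0.302 in mD3AKO mice. The WT value of *Myc* was 0.11 without the rested male 14 or the rested female 20 and 0.45 without the rested male 11. The mD3AKO value was 0.65 without the exercised male 19.

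*Mycl* (chr4:122995652-123002485, plus strand, ENSMUSG00000028654) varied widely between mice of one group. Exercised WT mice ran from 0.189 to 3.10 CPM (median 0.687), rested WT mice from 0.216 to 1.04 (median 0.273), rested mD3AKO mice from 0.0880 to 0.791 (median 0.252) and exercised mD3AKO mice from 0.249 to 0.797 CPM (median 0.350). The 4 ranges overlapped, and the log2 fold change with exercise was 0.55 ± 0.418. Without the exercised WT male 9, which had the 3.10 CPM, it was 0.23 ± 0.369. As a share of the summed MYC family per kilobase, *Myc* made up 68.3% ± 5.45 at rest and 79.2% ± 8.94 after exercise, and *Mycn* 23.8% ± 3.92 and 10.8% ± 6.72. The share of *Mycn* lay between 16.1% and 31.4% in rested mice and between 2.34% and 28.3% in exercised mice.

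*Max* (chr12:76937269-76962201, minus strand, ENSMUSG00000059436), the common dimer partner of the MYC, MXD and MNT proteins, was 14.4, 14.8, 15.7, 15.9 and 18.3 CPM in rested WT mice. Rested mD3AKO mice ran from 13.2 to 19.1 CPM (median 16.0), exercised WT mice from 17.3 to 20.6 (median 18.6) and exercised mD3AKO mice from 16.8 to 21.4 CPM (median 18.8). All 13 exercised mice were above the rested median of 15.8, and 9 rested mice were below the lowest exercised mouse. The mean was 15.9 ± 1.67 CPM at rest and 18.7 ± 1.24 after exercise, a log2 fold change of 0.24 ± 0.0531, or 1.18-fold (95% interval 1.10 to 1.27). The highest rested value was that of mouse 15, and without it the change was 0.27 ± 0.0490. Values in the genotypes were 0.24 ± 0.0770 in WT and 0.25 ± 0.0730 in mD3AKO mice.

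*Mnt* (chr11:74830920-74845725, plus strand, ENSMUSG00000000282) encodes a widely expressed MAX partner that represses E-box genes and opposes MYC. Rested WT mice were at 4.95, 5.19, 5.37, 5.78 and 5.79 CPM, and rested mD3AKO mice ran from 3.98 to 6.73 CPM (median 5.66). Exercised WT mice ran from 5.60 to 11.0 CPM (median 6.83) and exercised mD3AKO mice from 6.35 to 9.17 (median 8.23). All 13 exercised mice were above the rested median of 5.55 and 10 were above the highest rested mouse. The mean was 5.46 ± 0.692 CPM at rest and 7.86 ± 1.52 after exercise, a log2 fold change of 0.53 ± 0.0985, or 1.44-fold (95% interval 1.26 to 1.65). The change was 0.52 ± 0.143 in WT and 0.54 ± 0.135 in mD3AKO mice, and 0.53 ± 0.103 without mouse 15.

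**Figure D2:**
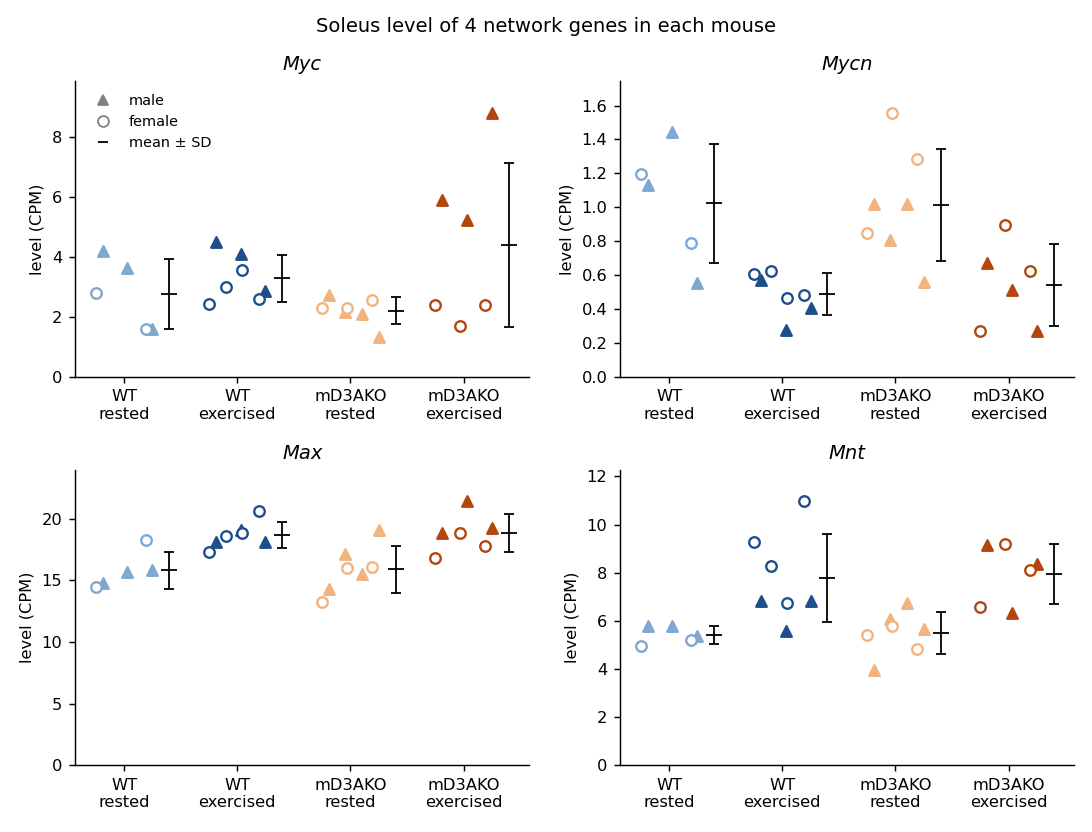
Level in CPM of Myc, Mycn, Max and Mnt in each mouse (linear axes from 0), with males as filled triangles, females as open circles, and the mean ± SD of each group in black. Mnt is above its rested median in all 13 exercised mice, Mycn is below its rested median in all 13, and the 3 exercised mD3AKO males hold the highest Myc values at 5.22 to 8.82 CPM.

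The proteins of several MXD genes are induced in many cell types as they stop dividing. *Mxd1* was 4.15 ± 0.687 CPM at rest and 4.22 ± 0.765 after exercise (log2 0.02 ± 0.102). *Mxi1* was 51.9 ± 6.28 and 52.9 ± 3.25 CPM (log2 0.03 ± 0.0574), with a 95% interval of 0.946 to 1.11-fold. *Mxd4* was 42.8 ± 5.22 and 47.0 ± 6.28 CPM (log2 0.13 ± 0.0722), with 10 of 13 exercised mice above the rested median. Mouse 15 had the lowest *Mxd4* level at rest, 33.5 CPM, and without it the value was 0.10 ± 0.0677. *Mxd3*, known for its level in dividing cells, was 0.168 ± 0.158 CPM at rest and 0.118 ± 0.0983 after exercise at 3 counts per library in the median. *Mxd1*, *Mxi1* and *Mxd4* did not pass the threshold, and *Mxd3* was not tested.

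*Mlxip* (chr5:123394798-123457932, plus strand, ENSMUSG00000038342) was 42.7 ± 4.42 CPM at rest and 50.0 ± 8.28 after exercise. Rested WT mice had 35.9, 38.0, 43.3, 49.9 and 51.1 CPM, rested mD3AKO mice 40.0 to 45.4 (median 41.6), exercised WT mice 41.6 to 55.9 (median 48.6) and exercised mD3AKO mice 42.5 to 74.3 (median 48.5). Of the 13 exercised mice, 12 lay above the rested median, and the log2 fold change was 0.23 ± 0.0742, just outside the threshold, whereas *Max*, with a change of similar size and a smaller SE, lay inside it. The *Mlxip* change passed without mouse 1, 2, 3, 16, 20, 23 or 25, at 0.23 to 0.26. *Mlx*, which encodes the partner of MLXIP, was at a log2 fold change of -0.05 ± 0.0465 with exercise.

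The balance of the network's transcripts was read from levels per kilobase. Protein was not measured. The length used was that of all annotated exons of a gene, so ratios between genes would differ if shorter isoforms were in use. The ratio of *Mnt* to *Max* was 0.270 ± 0.0390 at rest and 0.327 ± 0.0620 after exercise. The ratio of *Mnt* to *Myc* was 1.46 ± 0.534 and 1.5 ± 0.790, with wide overlap, and 1.37 ± 0.442 at rest without mouse 15. The sum of *Mnt*, *Mxi1* and the MXD genes exceeded the sum of the 3 MYC genes 13.6 ± 4.88-fold at rest and 11.6 ± 4.20-fold after exercise. It was 12.8 ± 4.09-fold at rest without mouse 15, which had the highest rested value. Transcripts of the repressing partners thus exceeded those of the MYC genes per length in every mouse. The lowest value was 4.70-fold, in an exercised mD3AKO mouse.

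Loss of *Dnmt3a* in muscle was compared with WT to ask whether the methyltransferase sets the level of these genes or their response. None of the 9 tested members differed between genotypes (edgeR quasi-likelihood, adjusted p from 0.948 to 1.00), where 0.269% of all genes did, and none had an unadjusted p under 0.05, against 6.23% of all genes. DESeq2 also called none. The largest difference was that of *Mycl*, lower by 0.59 on the log2 scale in mD3AKO (-0.59 ± 0.418, adjusted p = 0.948). It was -0.28 ± 0.369 without the exercised WT male 9 and -0.35 ± 0.434 without the rested WT male 11. For *Max* the mD3AKO level was 1.01-fold of WT (95% interval 0.935 to 1.08), for *Mxi1* 1.02-fold (0.947 to 1.11), for *Mnt* 1.02-fold (0.890 to 1.16), for *Mlxip* 1.02-fold (0.921 to 1.13) and for *Mxd4* 0.951-fold (0.862 to 1.05). The intervals for *Myc* (0.773 to 1.40) and *Mycn* (0.809 to 1.39) were wider.

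The response to exercise was not shown to differ between genotypes for any member. No gene in the whole table (0%) passed for the interaction, with 403 of 16340 (2.47%) at an unadjusted p under 0.05 and none called by DESeq2, and no tested member was among those 403. The difference in response, mD3AKO minus WT, was 0.01 ± 0.106 for *Max* and 0.01 ± 0.196 for *Mnt*, a ratio of 1.01 (95% interval 0.773 to 1.32) for the latter. For *Mycn* it was 0.14 ± 0.396. The largest was that of *Mycl*, -1.0 ± 0.837 (adjusted p = 1.00), from exercise values of 1.05 ± 0.589 in WT and 0.05 ± 0.597 in mD3AKO mice. Without the exercised WT male 9 it was -0.37 ± 0.738 and without the rested WT male 11 it was -1.49 ± 0.866. *Mxd1* was at -0.23 ± 0.204, *Mxd4* at -0.17 ± 0.144, *Mlxip* at 0.17 ± 0.148 and *Mxi1* at -0.011 ± 0.115. The *Mlxip* value was 0.038 without the exercised mD3AKO female 6 and 0.10 without the rested WT female 20. That of *Mxd1* was -0.37 without the exercised mD3AKO female 23 and -0.13 without the rested WT male 11, and that of *Mxd4* was -0.11 without the exercised mD3AKO male 17. It was 0.71 ± 0.437 for *Myc* (adjusted p = 1.00), and 0.39 ± 0.396 without the exercised mD3AKO male 19. For *Mnt* the value was 0.32 ± 0.252 in males alone and -0.22 ± 0.255 in females alone, where its WT exercise values were 0.18 ± 0.184 and 0.79 ± 0.190. In a fit of males alone the *Myc* value was 1.35 ± 0.449 (adjusted p = 0.991) and in females alone -0.53 ± 0.347 (adjusted p = 1.00).

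**Figure D3:**
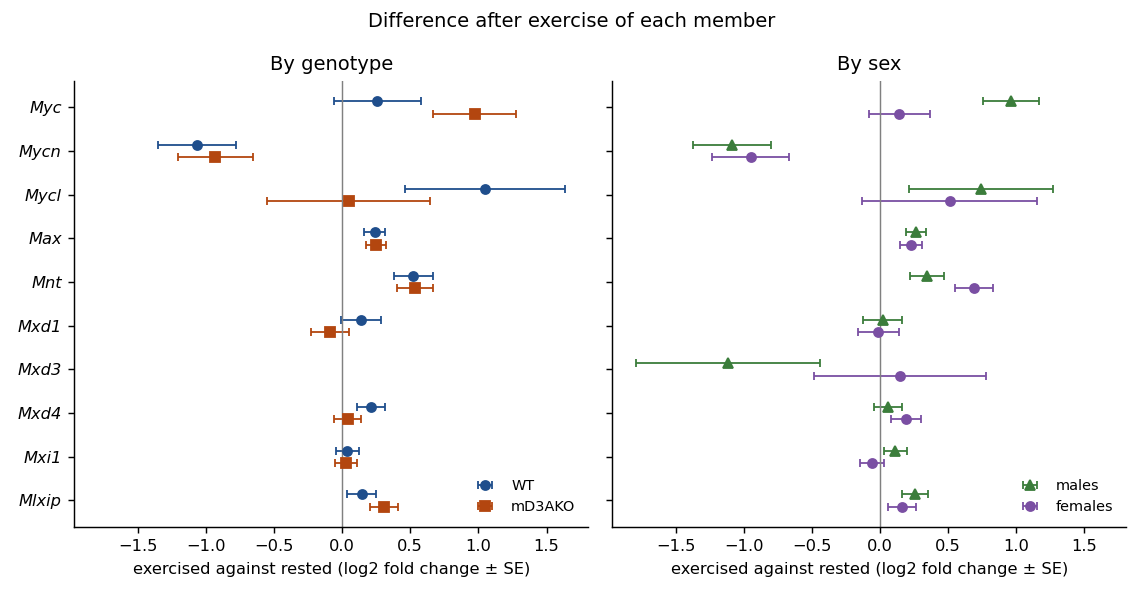
Difference between exercised and rested mice as log2 fold change ± SE for each member, in WT and mD3AKO mice (left) and in males and females (right). With both sexes together, Mnt is at 0.52 in WT and 0.54 in mD3AKO mice and Mycn at -1.07 and -0.93, and Myc is at 0.96 in males and 0.14 in females. Mxd3 was not tested in the fit by genotype.

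Both sexes were used. *Myc* passed for a difference between them, a call that was lost without the rested WT female 20 and with library totals, as given below. In a fit of 8 groups of sex, genotype and exercise over 17389 genes, *Myc* was higher in males by 0.60 ± 0.152, or 1.52-fold (95% interval 1.24 to 1.87, adjusted p = 0.0155), where 8.15% of genes passed. It was the only one of the 10 members, all tested in this fit, to pass, so the count was near the share of all genes. *Mycl* had the larger value, 0.94 ± 0.415, and did not pass (adjusted p = 0.179), and it was 0.61 ± 0.379 without the exercised WT male 9. Males had 3.78 ± 2.06 CPM (n = 13) and females 2.47 ± 0.530 (n = 12). The values of both sexes overlapped at rest, with males at 1.33 to 4.19 CPM (median 2.16) and females at 1.58 to 2.80 (median 2.30). After exercise, males were at 2.85, 4.12 and 4.49 CPM in WT and 5.22, 5.90 and 8.82 CPM in mD3AKO mice. Exercised females were at 2.42, 2.58, 3.00 and 3.57 CPM in WT and 1.69, 2.40 and 2.41 CPM in mD3AKO mice, so 5 of 6 males were above every female. By run of mouse numbers, exercised females were at 1.69 to 3.00 CPM in mice 1 to 6 and 2.40 to 3.57 CPM in mice 20 to 25. All males belonged to the same run, so number order and sex cannot be told apart, and the part of order was not tested.

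The difference between the sexes in *Myc* was 0.19 ± 0.223 at rest (adjusted p = 0.775, 1.93% of genes passed) and 1.01 ± 0.204 after exercise (adjusted p = 0.00889, 1.66% passed). These comparisons within rest and within exercise were not planned beforehand. They were not run under the alternatives, library totals among them, or with a mouse left out. The planned test of whether the sex difference changed with exercise was the interaction of exercise and sex. It gave 0.82 ± 0.301 with an unadjusted p of 0.0125 and an adjusted p of 1.00, so it did not pass over all genes, of which 0.046% did. Within the sexes the exercise values were 0.96 ± 0.203 in males and 0.14 ± 0.223 in females for *Myc*. For *Mnt* they ran the other way, 0.34 ± 0.128 in males and 0.69 ± 0.137 in females, with an interaction of -0.35 ± 0.186 (adjusted p = 1.00). The values for *Mycn* were -1.09 ± 0.286 and -0.95 ± 0.285, and those for *Max* 0.26 ± 0.0731 and 0.23 ± 0.0779. The ratio of *Mnt* to *Myc* per kilobase was 0.880 ± 0.289 in exercised males (n = 6) and 2.03 ± 0.680 in exercised females (n = 7), and 1.51 ± 0.658 and 1.39 ± 0.353 in the rested mice.

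The sex call of *Myc* was lost without the rested WT female 20 (0.51 ± 0.160, adjusted p = 0.0721) and with library totals in place of TMM (0.50, adjusted p = 0.107). That scaling moved the median sex difference of all genes from -0.00541 to -0.123, and the genes called higher and lower in males from 932 and 486 to 152 and 596. Slow-fiber markers moved with sex as well. Of 8 markers, 5 were lower in males (*Myh7*, *Tnni1*, *Tnnt1*, *Tnnc1* and *Myl2*), by 0.35 to 0.49 on the log2 scale. The summed level of the 8 ran from 28088 to 35853 CPM in males and from 33340 to 52850 CPM in females, and none was at 0. Of 8 satellite cell markers, *Pax7* (-0.30 ± 0.0817, edgeR adjusted p = 0.0270) and *Chodl* (-0.38 ± 0.0980, adjusted p = 0.0180) were lower in males. Their summed level ran from 108 to 213 CPM in males and from 125 to 200 CPM in females, and none was at 0. No marker of the other lists passed for sex. Above 0, without passing, were 5 of 5 blood (median 0.52), 3 of 3 neutrophil (0.64) and 6 of 7 macrophage and immune markers (0.17). Also above 0 were 6 of 8 endothelial (0.013), 3 of 8 fibroblast (-0.072), 3 of 6 smooth muscle and pericyte (-0.018) and 0 of 6 Schwann cell markers (-0.75). For the interaction of exercise and sex, the medians furthest from 0 were those of Schwann cell (0.98), blood (-0.64), adipocyte (0.39) and fibroblast markers (-0.25). The part of any of these sets in the *Myc* result was not tested.

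Genes that work with the network were described by lists, which were also written with the exercise results known. Their exercise counts are therefore a description and are not read against the 10.4% of all genes that passed (5.7% higher). Reported genotype results of these libraries had been read as well, so the genotype counts of the lists are a description too. Of the 3 other members of the extended family, *Mlx*, *Mlxipl* and *Mga*, none passed for exercise, genotype or sex, and *Mga*, a MAX partner with a second DNA-binding domain, had the largest exercise value at 0.12 ± 0.0576. Of 14 MYC cofactors and turnover factors, none passed for exercise (median log2 0.05, against -0.000883 over all genes tested). *Skp2*, a ubiquitin ligase subunit for MYC, was at -0.41 ± 0.182 and *Usp28*, a deubiquitinase that stabilizes MYC, at 0.34 ± 0.157. Of 14 genes of the SIN3 corepressor, through which MXD and MNT act, 1 passed for exercise. This was *Sap30*, a subunit that links SIN3 to histone deacetylases, which rose from 4.25 ± 0.824 to 6.08 ± 1.63 CPM (0.52 ± 0.128).

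Among 34 genes activated by MYC in growing cells, 5 passed for exercise and all 5 were higher, with a median log2 fold change of 0.07 over the list. They were *Gnl3*, a nucleolar GTP-binding protein (19.8 ± 2.16 to 25.0 ± 3.72 CPM, 0.34 ± 0.0708), *Nolc1*, a nucleolar chaperone of small nucleolar particles (27.3 ± 2.36 to 33.1 ± 2.42 CPM, 0.28 ± 0.0486), *Nop58*, a core protein of box C/D particles (0.27 ± 0.0583), the mitochondrial co-chaperonin *Hspe1* (0.25 ± 0.0649) and the translation initiation helicase *Eif4a1* (0.23 ± 0.0537). The other 29 did not pass, and 27 of the 34 were above 0. Of 6 genes that MYC represses, *Cdkn1a*, the cell cycle inhibitor p21, passed and was higher, at 10.4 ± 3.26 CPM at rest and 16.9 ± 4.39 after exercise (0.72 ± 0.162). Of 6 tested target genes of MLXIP and MLXIPL, 1 passed, and it was the only 1 above 0 (median of the 6 log2 fold changes -0.095). *Hk2*, hexokinase 2, rose from 464 ± 48.6 to 671 ± 72.6 CPM (0.52 ± 0.0637). *Txnip* and *Arrdc4*, a pair of direct MLXIP targets chosen here after their values were seen, did not pass at -0.14 ± 0.153 and -0.04 ± 0.0945. No gene of these 6 lists passed for genotype (edgeR adjusted p of at least 0.618 for the genes named next). Among the largest mD3AKO minus WT values were 0.09 for *Mga* and 0.04 for *Mlxipl* among the dimer partners, and 0.40 for *Pim1* and 0.23 for *Usp28* among the cofactors. They were 0.10 for *Rbbp7* of SIN3, and 0.12 for *Ccnd2* and -0.11 for *Fbl* of the growth genes. Those of the repressed genes were 0.21 for *Cdkn1a* and -0.040 for *Ndrg2*, and those of the MLXIP targets -0.93 for *Fasn* and -0.36 for *Acaca*. Of 6 adipocyte markers none passed for genotype and none was above 0 (median -0.68, with *Retn* at -0.81 and *Plin1* at -0.80). Their summed level ran from 48.0 to 561 CPM in WT and from 33.6 to 529 CPM in mD3AKO mice, no marker was at 0 throughout a group, and their part in the *Fasn* and *Acaca* values was not tested.

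For sex, 3 of the 34 growth genes passed, all higher in males. Of all genes, 8.15% passed, with 5.36% higher and 2.79% lower in males, so the share passing in either direction was near that of all genes. Over the list, 18 of the 34 were above 0, with a median log2 difference of 0.0039. *Nme1*, a nucleoside diphosphate kinase, was 22.7 ± 2.70 CPM in males and 16.9 ± 1.53 in females (0.44 ± 0.0694). *Odc1*, the first enzyme of polyamine synthesis and a classical MYC target, was 59.4 ± 11.7 and 45.0 ± 6.38 CPM (0.43 ± 0.0845). *Ldha*, lactate dehydrogenase A, was 835 ± 95.7 and 676 ± 82.3 CPM (0.32 ± 0.0748). Of the 6 repressed genes only *Cdkn1a* passed, lower in males at 11.2 ± 5.20 against 16.6 ± 3.16 CPM (-0.56 ± 0.108). Of the 14 cofactors only *Zbtb17* passed, whose protein MIZ1 recruits MYC to genes it represses, higher in males by 0.19 ± 0.0392. Of the 14 SIN3 genes only the subunit *Suds3* passed, higher in males by 0.24 ± 0.0435. Single calls in lists this short are not read against the 8.15% of all genes. The part of *Myc* in these values was not tested. The edgeR adjusted p of the 6 genes that passed ran from 3.05e-04 to 0.0102, and the other tested genes of the 6 lists did not pass for sex. In the lists where none passed, the largest values were -0.083 for *Mga* and -0.057 for *Mlxipl*, and -0.65 for *Fasn* and -0.31 for *Pfkfb3*. The 6 adipocyte markers were all below 0 here too (median -0.70), and none passed. Their sums ran from 34.3 to 439 CPM in males and from 33.6 to 561 CPM in females.

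**Figure D4:**
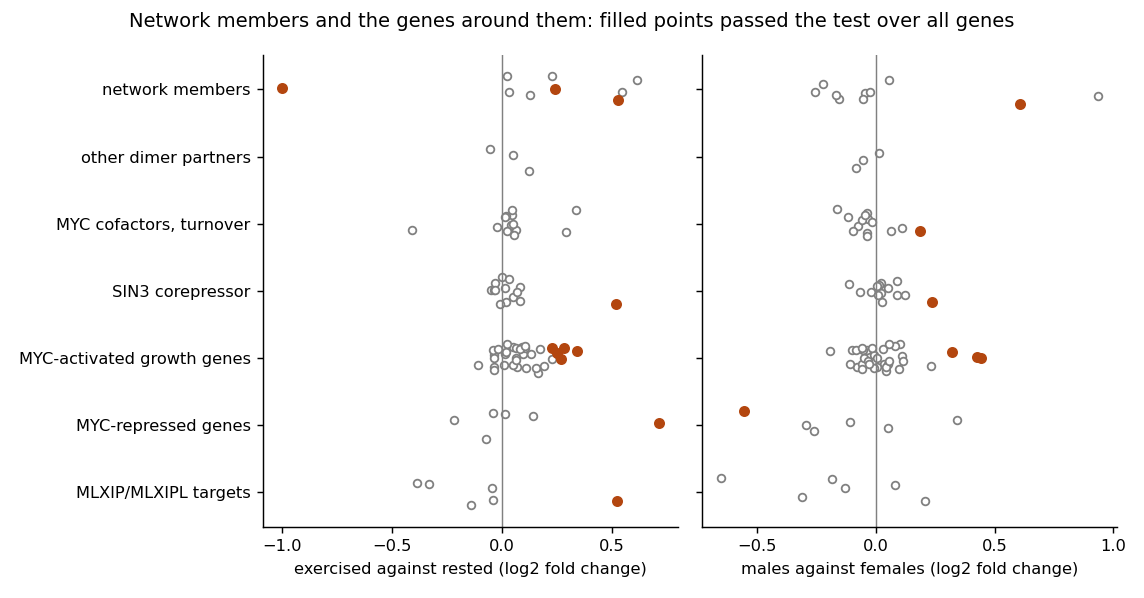
Log2 fold change of each tested gene of the network and of 6 lists around it, for exercised against rested mice (left) and males against females (right). Filled points passed the test over all genes at an adjusted p of 0.05. Mycn stands at -1.0 and Cdkn1a at 0.72 on the left, and Myc at 0.60 and Cdkn1a at -0.56 on the right.

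Markers of other cells in the muscle also moved with exercise, and *Pax7* alone among the markers passed for genotype, higher in mD3AKO by 0.48 ± 0.105 (edgeR adjusted p = 0.0384). Of 8 satellite cell markers, *Pax7* (-0.45 ± 0.105) and *Myf5* (-0.46 ± 0.0902) fell while *Sdc4*, a syndecan that is not particular to these cells, rose (0.93 ± 0.0831). The summed level of the 8 ran from 108 to 165 CPM at rest and from 144 to 213 after exercise. Of 8 endothelial markers, *Cdh5*, *Kdr*, *Tek* and *Egfl7* fell, by 0.23 to 0.58 on the log2 scale, and *Flt1* and *Esam* rose (0.32 and 0.31), with sums of 505 to 664 CPM at rest and 473 to 595 after exercise. *Pdgfrb* fell and *Cnn1* rose among 6 smooth muscle and pericyte markers (sums of 693 to 875 and 715 to 893 CPM). Among neutrophil markers, 3 of 6 were tested and *S100a9* fell (-1.28 ± 0.406), with sums of 0.834 to 2.60 and 0.265 to 2.75 CPM. No slow fiber, fibroblast, macrophage, adipocyte, Schwann cell or blood marker passed for exercise. Of 8 fibroblast markers 1 was above 0 (median log2 fold change -0.33), 0 in mD3AKO mice alone (-0.44) and 3 in WT mice alone (-0.059), with sums of 1147 to 5645 CPM at rest and 1280 to 3031 after exercise. Of 7 macrophage and immune markers 1 was above 0 (median -0.17), with sums of 59.6 to 228 and 39.9 to 176 CPM. Of the other lists, those above 0 were 7 of 8 slow fiber (median 0.03), 6 of 6 adipocyte (0.17), 5 of 6 Schwann cell (0.12) and 0 of 5 blood markers (-0.12). Adipocyte markers above 0 were 6 of 6 in WT (0.63) and 1 of 6 in mD3AKO mice (-0.25), 6 of 6 in males (0.42) and 2 of 6 in females (-0.15). Schwann cell markers above 0 were 6 of 6 in WT (0.46) and 0 of 6 in mD3AKO mice (-0.21), 6 of 6 in males (0.56) and 0 of 6 in females (-0.53). For blood they were 0 of 5 in males (-0.26) and 5 of 5 in females (0.29). No marker on any list was at 0 in all mice of a group. *Mycn* and *Myc* are known in progenitor and immune cells as well as in fibers, and the part of these cells in the *Mycn*, *Max* and *Mnt* differences was not tested.

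The genes with the most similar pattern over the 25 libraries were taken as the 3 with the highest Pearson correlation of log2 CPM among 12686 or 12687 other tested genes whose log2 CPM averaged 0 or more. The libraries share the 2 exercise states and both sexes, so the correlations are a description. For *Myc* they were *Hbegf*, a ligand of the EGF receptor (r = 0.907), *Itga5*, a fibronectin receptor subunit (0.898), and *Thbs1*, a matrix glycoprotein (0.873). For *Mycn* they were *Fzd2*, a WNT receptor (0.883), *Wnt5a*, a WNT ligand (0.835), and *Rarg*, a retinoic acid receptor (0.809). For *Max* they were *Nrip1*, a nuclear receptor corepressor (0.850), *Gm37048* (0.833) and *Npy1r*, a neuropeptide Y receptor (0.824). For *Mnt* they were *Mn1*, a transcriptional coregulator (0.856), *Pdxk*, pyridoxal kinase (0.855), and *Pim3*, a serine/threonine kinase (0.843). Without mouse 15 the first gene was the same for *Myc*, *Mycn* and *Max*, and for *Mnt* it was *Pdxk* (0.859).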

How the data were processed

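Total RNA of *soleus* muscle from 25 mice was depleted of ribosomal RNA, prepared with a stranded kit and sequenced as 75-bp paired reads by the authors. The deposited values are raw read counts per gene on mm10 with the GENCODE M15 gene model, beside each gene's exon coordinates and exonic length. The submitters' processing notes name FastQC 0.11.5, STAR 2.5.3a and featureCounts 1.5.3, and the strand setting of the counting is not given in the sources used here. Reads of a gene and of an opposite-strand gene that shares its exons could therefore be mixed.

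Symbols were taken from GENCODE M21 by gene ID, and 233 of 52636 genes had none. Counts were tested with edgeR 4.0.16 in R 4.3.3: TMM scaling, genes kept by filterByExpr (minimum count 10, minimum total 15), glmQLFit and glmQLFTest over 4 groups, with main effects averaged over the other factor at equal weights and Benjamini-Hochberg adjustment over 16340 genes at 0.05. Sex was tested in the same way over 8 groups of sex, genotype and exercise (17389 genes). Intervals are log2 fold change ± 1.96 SE and cover the spread between mice, each a separate animal. The 67 pairs of libraries within groups all differed by more than sampling noise. All 10 members were named. Of the 6 pathway lists, the genes that passed for exercise, genotype or sex were named and, where none did, the 2 with the largest fold changes, apart from a gene that is not reported here. Of the lists of cell markers, those that passed were named. The members and lists were chosen with earlier results of these data known. Correlations used log2 CPM with a prior count of 2. The fit was tested on simulated data. Alternatives were other scalings, filters, DESeq2 1.42.0, terms for sex or mouse-number run, each sex alone, library sizes without ribosomal RNA, and each mouse left out.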

Additional observations from a re-analysis of the deposited data

Results flagged for a closer look

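In 5 of 40 groups of a member and a condition, the highest mouse stood apart from the rest by Dixon's criterion at the 95% level, which chance alone meets in about 1 of 20 groups of normally distributed values. The count is not read against that rate, as the rate over all genes was not computed and 2 of the 5 groups are of *Mxd3*, with few counts. *Mycl* was 3.10 CPM in the exercised WT male 9 (98 counts), against 0.189 to 1.26 CPM in the other exercised WT mice. *Mxd3* was 0.375 CPM in the exercised WT female 5 (12 counts, others 0.0549 to 0.165 CPM). *Mxd3* was also high in the rested mD3AKO male 7 at 0.613 CPM (24 counts, others 0.0293 to 0.264 CPM). *Mxi1* was 60.9 CPM in the exercised WT male 18, against 47.2 to 52.6 CPM in its group. *Mlxip* was 74.3 CPM in the exercised mD3AKO female 6, against 42.5 to 52.3 CPM in its group.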

How the results depend on the processing

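No paired analysis was possible because each mouse number occurs once and no number is shared between groups. The number of members that passed for exercise was 3, and it was 5 with DESeq2, 5 with sex as a term and 1 in females alone, and 3 to 5 with a mouse left out. All genes called for exercise numbered 1699, and 927 with library size only, 512 in females alone and 966 in males alone. Within WT mice, 2 members passed, and 0 with library size only, 1 with a sex term, 0 in females and 0 in males alone, and 0 to 2 with a mouse left out. Within mD3AKO mice, 3 passed, and 0 with library size only, 1 without a filter on low counts, 0 in females and 1 in males alone, and 1 to 5 with a mouse left out. For genotype no member passed under any alternative, while all genes called numbered 44, and 29 with library size only, 81 with DESeq2, 72 with a sex term, 6 in females, 23 in males and 97 with a term for mouse-number run. For sex, 1 member and 1418 genes passed, and 0 and 748 with library size only. With a mouse left out, 0 or 1 member and 834 to 1740 genes passed for sex, the lower ends without the rested WT female 20. The cause of these shifts was not tested. Fits of 1 sex also held fewer mice, and the part of that was not tested either.

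The exercise values of the members are descriptions, as the members were chosen with that contrast known. *Mycn*, *Max* and *Mnt* kept the direction of the exercise difference under all 11 alternatives and missed the threshold in 1 each, *Mycn* (-0.96) and *Max* (0.22) in females alone and *Mnt* (0.34) in males alone. *Myc* passed for exercise under 5 of 11 alternatives (0.55 to 0.95) and was 0.13 in females alone. Directions that turned belonged to differences that did not pass. For exercise, *Mxd1* was -0.023 and *Mxi1* -0.068 in females alone, and *Myc* within mD3AKO was -0.14 in females alone. For genotype, with library size only, *Max* was -0.037, *Mxi1* -0.0071, *Mnt* -0.015 and *Mlxip* -0.012. In females alone, the genotype values were -0.15 for *Myc*, -0.10 for *Max*, -0.041 for *Mnt* and -0.058 for *Mlxip*. In males alone they were -0.016 for *Mycn* and 0.026 for *Mxd1*, and with 8 groups -0.013 for *Myc*. For the interaction in females alone, the values were -0.53 for *Myc*, -0.18 for *Mycn*, 0.022 for *Mxi1* and -0.22 for *Mnt*. With library size only they were -0.0057 for *Max* and -0.012 for *Mnt*, and without a filter -0.0031 for *Max*. The sex value of *Max* was -0.074 with library size only.

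With a mouse left out, the genotype values ran from -0.018 to 0.035 for *Max*, -0.039 to 0.056 for *Mlxip*, -0.0096 to 0.076 for *Mnt*, -0.081 to 0.033 for *Mxd1*, -0.10 to 0.16 for *Myc* and -0.019 to 0.16 for *Mycn*. The interaction ran from -0.053 to 0.064 for *Max*, -0.058 to 0.11 for *Mnt*, -0.076 to 0.038 for *Mxi1* and -0.062 to 0.29 for *Mycn*. For *Mxd1* the exercise value ran from -0.042 to 0.072, and the sex value ran from -0.54 to 0.17 for *Mxd3* and -0.068 to 0.0022 for *Mxi1*. Depth limits *Mycn*, *Mycl* and *Mxd3*, with medians of 20, 13 and 3 counts per library.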
